A study of Caenorhabditis elegans with 2 samples.

Results

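The tRNA genes of the *Caenorhabditis elegans* X chromosome were examined for binding of LSY-12, a MYST-family enzyme that acetylates histones. The members were all genes of biotype tRNA on X in the Ensembl annotation of the WBcel235 assembly, which made 276 of 612 nuclear tRNA genes (45.1%) and of 46890 nuclear genes in all. Whole larvae were used for chromatin immunoprecipitation and sequencing (ChIP-seq), with an anti-GFP antibody. They were of strain OP568 (unc-119(tm4063) III; wgIs568). This line stably expresses LSY-12 with GFP and FLAG at its C terminus. All animals carried the same alleles and the same tagged protein, were of mixed sex and were collected as L3 larvae, 43 h after release from starved, synchronized L1 larvae. They formed 1 group with 2 biological replicates, numbered 3 and 4, and no second condition. Signal from whole animals is the sum over all cell types, so binding in a few cells cannot be told apart from weak binding in many.

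A tRNA gene is transcribed by RNA polymerase III. The polymerase is brought in by promoter elements that lie inside the gene, an A box near its 5′ end and a B box nearer its 3′ end, which the factor TFIIIC recognises, and it stops at a run of T just downstream. The mature tRNA carries 1 amino acid, its isotype, to the ribosome. Most isotypes are encoded by many gene copies, and in this worm the X chromosome is rich in them.

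The X tRNA genes were 64 to 120 bp long, with a median of 72 bp, and 12 of them had an intron. They lay at 15.6 genes per Mb on X, against 4.07 tRNA genes per Mb on the autosomes. Sequences of members that the results turn on are shown here 5′ to 3′ on the gene's strand, from the gene's first base to the end of the T run, as taken from the RefSeq copy of WBcel235. Capitals mark the B box (GGTTCGA, then 2 bases of any kind, then CC, with at most 1 mismatch) and the T run. The first 4 are bound genes with some of the highest signals, C02B4.t1 being the one without a B box match, and F55G7.t2 is a gene that was not bound. The final pair are identical copies of a histidine tRNA gene, C06G1.t1 bound and F28H6.t3 not bound.
R04D3.t2, valine, chrX:13307034-13307106, plus strand: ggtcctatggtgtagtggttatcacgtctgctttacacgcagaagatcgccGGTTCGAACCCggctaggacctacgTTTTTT
C02B4.t1, isoleucine, chrX:12661164-12661247, plus strand: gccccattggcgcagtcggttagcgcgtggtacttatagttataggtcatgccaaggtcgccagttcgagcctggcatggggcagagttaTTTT
F15G9.t1, alanine, chrX:9743589-9743660, plus strand: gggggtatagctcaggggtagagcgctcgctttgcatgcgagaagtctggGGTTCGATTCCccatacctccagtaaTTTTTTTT
W02H3.t1, leucine, chrX:11095673-11095754, plus strand: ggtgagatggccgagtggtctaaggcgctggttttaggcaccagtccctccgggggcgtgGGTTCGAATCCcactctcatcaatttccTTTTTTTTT
F55G7.t2, threonine, chrX:11935080-11935151, minus strand: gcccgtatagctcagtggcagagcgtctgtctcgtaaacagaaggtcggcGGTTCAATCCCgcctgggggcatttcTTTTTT
C06G1.t1, histidine, chrX:16634830-16634901, minus strand: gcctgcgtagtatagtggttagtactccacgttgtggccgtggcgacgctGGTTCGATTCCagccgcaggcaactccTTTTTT
F28H6.t3, histidine, chrX:14135874-14135945, plus strand: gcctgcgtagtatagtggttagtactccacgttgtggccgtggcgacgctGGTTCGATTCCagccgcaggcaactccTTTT

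LSY-12 peaks were found at 100 of the 276 X tRNA genes (36.2%, 95% interval 30.6 to 42.2%). A gene was called bound when the summit of a peak in the authors' reproducible (thresholded) list of 2095 peaks lay within 500 bp of its annotated start. By the same call 109 of 336 autosomal tRNA genes (32.4%, 27.5 to 37.7%) were bound, as were 116 of 2731 X protein-coding genes (4.25%), 1050 of 19973 protein-coding genes of the whole genome (5.26%) and 2072 of all 46890 nuclear genes (4.42%). The intervals of X and autosomal tRNA genes overlapped, and their difference was not tested. On single autosomes the share was between 23.1% on chromosome V and 39.1% on chromosome III. Intervals were computed by the exact Clopper-Pearson method. They reflect counting error alone, and neighbouring genes can share a summit. Larvae lacking the tag were not analysed here, and the part of the signal that is independent of LSY-12 is therefore not known.

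Genes annotated as tRNA pseudogenes had few or no peaks. None of 29 X tRNA pseudogenes was bound (a count of 0 allows up to 10.3%, taken as 3 counts of 29, and the exact interval reaches 11.9%), and 5 of 180 autosomal tRNA pseudogenes (2.78%) were. Only 6 of the 29 X pseudogenes had a surrounding window that was mostly single-copy, a property described further on, against 175 of the 276 X tRNA genes.

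The bound X tRNA genes were reached by 86 distinct summits, 20.8% (17.0 to 25%) of the 414 thresholded summits on X. On the autosomes 98 of 1681 summits (5.83%) were at tRNA genes. These genes are sparser there, at 4.07 per Mb against 15.6 on X, and the part of this density in the shares was not tested. Of the 306 X summits that lay more than 500 bp from every protein-coding start, 75 (24.5%) were at a tRNA gene. A summit reached 1 X tRNA gene in 69 cases, 2 in 16 cases and 3 in 1 case, so that 35 bound genes shared a summit with another member. The summits that reached 2 or more genes had a median relative signal of 3.24 (range 2.06 to 6.40), and those that reached 1 gene had 2.89 (1.82 to 10.2). Relative signal is the authors' signal value of a region divided by the median signal of the 30000 candidate regions of the same list, averaged over both replicates. Among the 86 summits 4 repeat the replicate regions of another summit, and their value was counted for both summits.

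**Figure D1:**
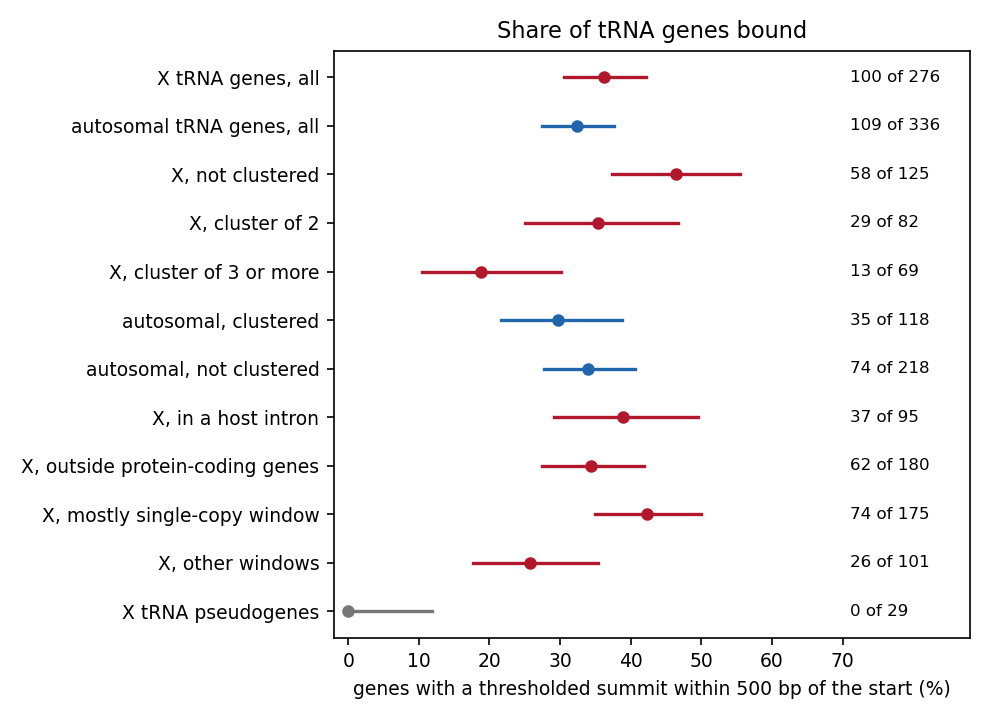
Share of tRNA genes with a thresholded LSY-12 summit within 500 bp of the start (x axis, %), with exact 95% intervals as lines and counts at the right, for X tRNA genes (red), autosomal tRNA genes (blue) and X tRNA pseudogenes (grey). The X share was 36.2% over all 276 genes and was 46.4%, 35.4% and 18.8% for genes outside clusters, in clusters of 2 and in clusters of 3 or more.

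Signal at the bound X tRNA genes spanned a wide range and had a median of 2.97 (1.82 to 10.2). The quartiles were 2.32 and 3.98. The medians of the replicates lay close together, at 3.00 in replicate 3 and 2.85 in replicate 4. The 109 bound autosomal tRNA genes had a median of 2.64 and reached 5.71, and the bound X protein-coding genes had a median of 3.05 and reached 14.5. These levels are a description, because a peak had to be strong to enter the thresholded list. In the pooled list the regions at X tRNA genes had ranks from 51 to 2092 with a median of 908. Of the 99 X summits among the 500 strongest pooled regions, 18 were at X tRNA genes. The authors' q-value was 0.01 or below for the peaks of 64 bound X tRNA genes (64.0%), of 62 autosomal ones (56.9%) and of 70 X protein-coding genes (60.3%).

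The strongest X tRNA gene was C02B4.t2, a tyrosine tRNA gene in an intron of *nhr-17*, a nuclear hormone receptor gene, on the opposite strand to its host. Its relative signal was 10.5 in replicate 3 and 9.99 in replicate 4, a mean of 10.2 ± 0.348 (SD, n = 2), with the summit 16 bp inside the gene. The next was the arginine tRNA gene C18A11.t2, with 10.0 and 9.03 in replicates 3 and 4 (mean 9.54 ± 0.723). Both replicates thus placed these genes at the top, and they were the only members among the 100 strongest pooled regions. C18A11.t2 had a second, nearer summit 102 bp downstream of its start, at pooled rank 600 against 61. The strong one lay 316 bp downstream, beyond the end of the gene, and its thresholded region did not overlap the gene. The same replicate regions gave the values of both summits.

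The valine tRNA gene R04D3.t2 had 7.88 and 8.20 in replicates 3 and 4 (mean 8.04 ± 0.225), with the summit 26 bp downstream of its start. The isoleucine tRNA gene C02B4.t1, about 4 kb from C02B4.t2, had 9.18 and 5.60 (mean 7.39 ± 2.53), the widest gap between the replicates among the 15 strongest genes. Its stronger summit lay 99 bp downstream of the start, past the end of the gene. A second one, at pooled rank 832 against 116, lay farther downstream. The glutamate tRNA gene C28G1.t1 had 7.43 and 6.68 (mean 7.06 ± 0.531), and it was the only X tRNA gene that touched an exon of a protein-coding gene, *C28G1.2*. These genes were of different isotypes and of different sequence, and none shared a summit with another X tRNA gene.

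Several of the strongest signals came from a pair of neighbouring tRNA genes under 1 summit. M02F4.t2, for glutamate, and M02F4.t1, for glycine, point away from each other, and their shared summit lay upstream of both, 67 and 50 bp before their starts, with 6.92 and 5.88 in replicates 3 and 4 (mean 6.40 ± 0.740). The proline tRNA genes F46G11.t2 and F46G11.t1 are also a divergent pair with a summit between them, with 5.34 and 5.52 in replicates 3 and 4 (mean 5.43 ± 0.130). The alanine tRNA genes F15G9.t1 and F15G9.t2 follow each other in an intron of *him-4*, which encodes the extracellular matrix protein hemicentin. Their summit lay between the starts and had 5.66 and 5.19 in replicates 3 and 4 (mean 5.42 ± 0.331). A signal of such a pair cannot be assigned to either gene.

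The other genes among the 15 strongest each had a summit of their own close to the start. F41D9.t3, for asparagine, lies in an intron of *sulp-3*, a gene of the sulfate permease family, and had 6.57 and 4.66 in replicates 3 and 4 (mean 5.62 ± 1.35). It also had a second summit downstream of the gene, at pooled rank 1646 against 227. C33G3.t2, for lysine, had a mean of 5.50 ± 0.294, W02H3.t1, for leucine, had 5.12 ± 0.133, and C42D8.t1, for isoleucine, had 4.96 ± 0.221 (SD, n = 2 each). The strongest summits of these genes lay 20, 14 and 6 bp upstream of the start in F41D9.t3, C33G3.t2 and W02H3.t1, and 29 bp downstream of it in C42D8.t1.

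**Figure D2:**
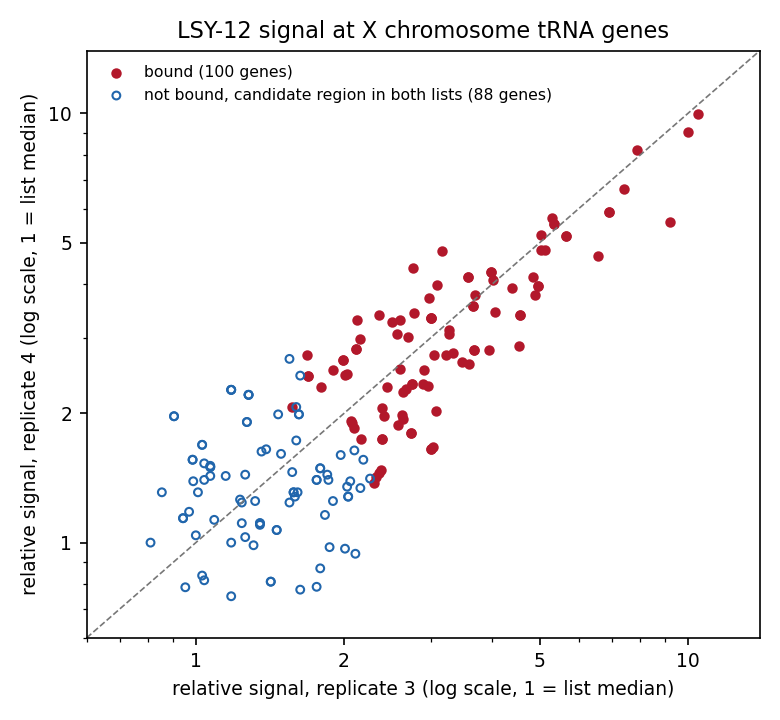
Relative signal of the X tRNA genes in replicate 3 (x axis) and replicate 4 (y axis), both on log scales with 1 as the median of the list, for bound genes (filled) and for unbound genes with a candidate region in both lists (open); the dashed line marks equal values. The 100 bound genes spread along the line up to 10.5 and 9.99, and the 88 unbound genes lie near the origin with means between 0.870 and 2.11.

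The signals of the replicates were alike at the bound X tRNA genes, which can in part reflect how these genes were chosen. The thresholded list was made from these same replicates by a procedure that selects reproducible peaks. Of the 86 summits 4 repeat the replicate regions of another summit, and over the 82 distinct pairs of regions the relative signals correlated with Spearman's rho = 0.740 and, on the log2 scale, with Pearson's r = 0.802, given as a description. Over these pairs the coefficient of variation had a median of 15.1% and was between 1.30% and 41.0%. Of the 100 bound genes 62 were higher in replicate 3. When the 2095 strongest regions of each replicate were used by themselves, 100 X tRNA genes were called in replicate 3 and 88 in replicate 4. Both calls were met by 68 genes, all of them in the thresholded list. Of the bound genes 31 were called in exactly 1 replicate and 1 in neither. A further 11 genes were called only in replicate 3 and 10 only in replicate 4, without a thresholded summit.

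Weaker signal was common at the X tRNA genes that were not bound. A candidate region, from the lists that also hold background, had its summit in the window in both replicates at 188 of 276 X tRNA genes (68.1%), against 212 of 336 autosomal tRNA genes (63.1%) and 556 of 2731 X protein-coding genes (20.4%). The 176 unbound X tRNA genes had such a region in both lists in 88 cases, in 1 list in 56 cases and in neither in 32 cases. Where both replicates had one, the mean relative signal was 0.870 to 2.11 with a median of 1.43. In the pooled list 44 unbound genes had their strongest region at a rank up to 5000, 38 at a rank above 5000 and up to 10000, and 42 at a rank above 10000. The best rank was 2236, below every thresholded peak by the way that list was made.

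Among the unbound genes with a candidate region in both lists, the strongest lay close to the weakest bound ones. F25F6.t1, for glutamate, had 1.55 in replicate 3 and 2.68 in replicate 4 (mean 2.11 ± 0.794), and F12D9.t5, for arginine, had 1.63 and 2.45 (mean 2.04 ± 0.583). The following means were 1.87 ± 0.445 at R04D3.t3, for proline, 1.87 ± 0.325 at F42D1.t1, for cysteine, and 1.83 ± 0.596 at F55G7.t2, for threonine (SD, n = 2 each). The lowest mean of a bound X tRNA gene was 1.82, so bound and unbound genes overlapped in level. The replicate 4 region of F12D9.t5 is also the one behind its bound neighbours F12D9.t6 and F12D9.t1, while F25F6.t1 lay above that lowest mean as well. Some unbound genes with a region in 1 list were higher in that list. R01H5.t1, for threonine, had 5.48 and C03A3.t1, for arginine, had 3.18 in replicate 3, neither had a candidate region in replicate 4, and both were named after their values were seen.

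LSY-12 summits lay at and around the starts of the tRNA genes. The nearest summit of the 100 bound X tRNA genes had a median position 12.5 bp downstream of the start, with quartiles at −29 and 44.2 bp. It lay within 100 bp of the start in 79 genes and inside the gene in 37. Upstream positions numbered 46 and positions at or downstream of the start 54. The bound autosomal tRNA genes had a median position of 30 bp, and 90 of 109 (82.6%) were within 100 bp. The bound X protein-coding genes had a median of −193.5 bp, with 100 of 116 summits upstream and 27 (23.3%) within 100 bp. The summit was the middle of the region in 95.3% of the peaks at X tRNA genes, whose median width was 410 bp, so a position is that of the midpoint of a region longer than the gene.

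**Figure D3:**
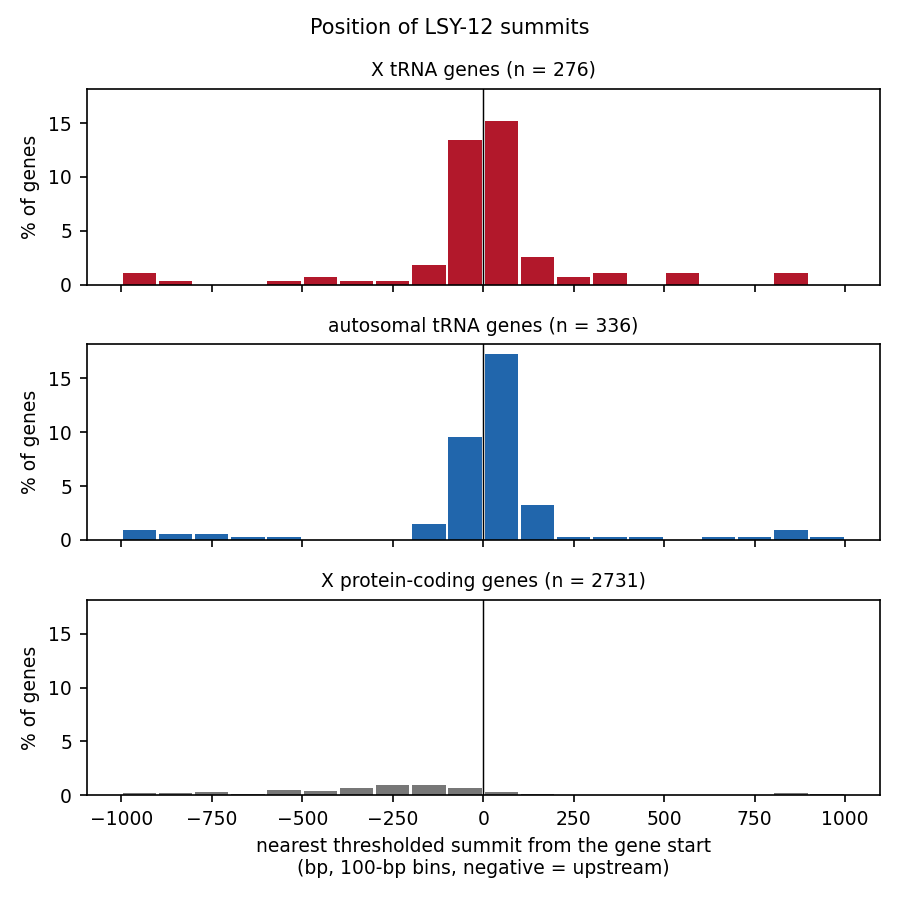
Position of the nearest thresholded LSY-12 summit relative to the gene start (x axis, bp in bins of 100 bp, negative is upstream) as a percentage of all genes of a group (y axis), for X tRNA genes, autosomal tRNA genes and X protein-coding genes. The X tRNA genes peak on both sides of the start, with 79 of 100 bound genes within 100 bp, and the X protein-coding genes are low and lie mostly upstream, with a median of −193.5 bp among the bound ones.

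Few members stood near the 500 bp limit. The bound genes with the farthest summits were F11A1.t2, for glutamate, at −490 bp, H08J11.t4, for glutamine, at −481 bp, and F41D9.t2, for arginine, at −369 bp. Their mean relative signals were 2.54 ± 0.289, 3.17 ± 0.224 and 2.32 ± 0.951. The unbound genes with the nearest summits were R11.t2, for tyrosine, at −570 bp, F12D9.t5 at 573 bp and C16B8.t1, for proline, at 579 bp. R11.t2 had a relative signal of 0.79 in replicate 3 only, and the means of the others were 2.04 ± 0.583 and 1.69 ± 0.477. Each of these 6 genes has another tRNA gene close by.

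The share of bound X tRNA genes was lower in clusters than outside them, by an amount that depended on replicate 3 and on the window. A cluster was 2 or more X tRNA genes whose neighbouring starts lay at most 2000 bp apart, and 58 clusters held 151 genes. In clusters 42 of 151 genes (27.8%, 20.8 to 35.7%) were bound, against 58 of 125 (46.4%, 37.4 to 55.5%) outside clusters, and these intervals did not overlap. Without replicate 3 the shares were 29.8% (22.6 to 37.8%) in clusters and 34.4% (26.1 to 43.4%) outside, with overlapping intervals. With a window of 1000 bp they were 35.1% (27.5 to 43.3%) and 46.4%, which also overlapped. The share was the lower one in clusters in all 11 alternatives with both values, and the intervals overlapped in 6 of them. The difference itself was not tested. By size, the share was 35.4% (29 of 82) in clusters of 2 and 18.8% (13 of 69, 10.4 to 30.1%) in clusters of 3 or more. None of the 14 genes in clusters of 6 or more was bound, which allows up to 21.4% as 3 counts of 14, with the exact interval reaching 23.2%. On the autosomes, 35 of 118 clustered tRNA genes (29.7%) and 74 of 218 outside clusters (33.9%) were bound, and 11 of 30 (36.7%) in clusters of 3 or more. Whether the relation to clusters differs between X and the autosomes was not tested. The median distance to the nearest tRNA gene start was 4064 bp for bound and 950 bp for unbound X tRNA genes.

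Repeated sequence moved with the clusters. The 500 bp on either side of a start counted as mostly single-copy where no more than 10% of the 32-base words in them were repeated elsewhere in the genome, since reads from repeated sequence cannot be placed with certainty. Of X tRNA genes with such windows 74 of 175 (42.3%) were bound, against 26 of 101 (25.7%) of the others. Within mostly single-copy windows, 19 of 67 clustered genes (28.4%, 18.0 to 40.7%) and 55 of 108 genes outside clusters (50.9%, 41.1 to 60.7%) were bound. In the other windows, 23 of 84 clustered genes (27.4%) and 3 of 17 outside clusters (17.6%) were bound. In these windows with more repeats the clustered genes had the higher share, and the intervals overlapped (18.2 to 38.2% and 3.80 to 43.4%). A tRNA gene with copies elsewhere adds repeated words of its own, so a neighbouring tRNA gene can lift a window above 10%. The windows of the pair M02F4.t2 and M02F4.t1 had 11.0%, and that of C42D8.t1, outside clusters, had 5.36%. The split by window is therefore not independent of clustering, and the part of repeats in the relation to clusters was not tested.

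Of the 41 clusters of 2, 24 had no bound gene, 12 had both genes bound and 5 had 1. In all 12 with both bound, 1 shared summit reached both genes, so the joint call follows from the window and does not show binding at each gene. The largest cluster, F22F1.t2 to F22F1.t9, held 8 genes for aspartate, serine, methionine and isoleucine over 4162 bp, and none was bound. Its highest mean relative signal, at F22F1.t5 and F22F1.t6, was 1.66 ± 0.537, from 2.04 in replicate 3 and 1.28 in replicate 4. At F22F1.t2 and F22F1.t3 it was 1.45 ± 0.191, at F22F1.t7 it was 1.25 ± 0.261, and F22F1.t4, F22F1.t8 and F22F1.t9 had no candidate region in either list. The nearest thresholded summits were more than 75 kb away from every gene of this cluster.

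The cluster F28H6.t2 to F28H6.t7 held 6 histidine tRNA genes of identical sequence over 1966 bp, and none was bound. F28H6.t4 and F28H6.t5 had 1.46 in replicate 3 and 1.07 in replicate 4 (mean 1.27 ± 0.274), F28H6.t2 and F28H6.t7 had 1.03 in replicate 4 only, and F28H6.t3 and F28H6.t6 had no candidate region. Between 30.3% and 97.5% of the 32-base words in their windows were repeated, and the windows without a candidate had 97.5%.

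Of the clusters of 5 genes, 1 had bound members and the others had none. In the *ajm-1* cluster, which lies in an intron of that apical junction gene and encodes glutamine tRNAs, a summit of 3.01 in replicate 3 and 3.33 in replicate 4 reached H08J11.t2, H08J11.t3 and H08J11.t4. It lay 21 bp upstream of H08J11.t3, and H08J11.t1 and H08J11.t5 had a weaker region of 1.58 ± 0.259. The K01A12 cluster, of arginine and cysteine tRNA genes in an intron of *K01A12.3*, was unbound, with 1.72 ± 0.770 at K01A12.t2, K01A12.t3 and K01A12.t4 and, in replicate 4 only, 2.27 at K01A12.t1 and K01A12.t5. The R04E5 cluster, of glycine and cysteine tRNA genes, was unbound, with 1.74 ± 0.661 at R04E5.t1, R04E5.t2 and R04E5.t3, 0.870 ± 0.117 at R04E5.t5 and, in replicate 3 only, 0.952 at R04E5.t4. In both of the unbound clusters replicate 4 was the higher at the strongest region.

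Bound X tRNA genes were found both inside introns of protein-coding genes and between genes, at shares whose intervals overlapped. In introns 37 of 95 X tRNA genes (38.9%, 29.1 to 49.5%) were bound, the 95 genes having 67 host genes, against 62 of 180 (34.4%, 27.5 to 41.9%) outside protein-coding genes. Bound genes had a median relative signal of 2.72 (1.84 to 10.2) in introns and of 3.08 (1.82 to 9.54) outside. On the host's strand 16 of 50 (32%, 19.5 to 46.7%) were bound, and on the opposite strand 21 of 45 (46.7%, 31.7 to 62.1%), with overlapping intervals. Of the intron-hosted genes 10 of 45 (22.2%, 11.2 to 37.1%) in clusters and 27 of 50 (54.0%, 39.3 to 68.2%) outside clusters were bound. Of those outside protein-coding genes 32 of 106 (30.2%, 21.7 to 39.9%) in clusters and 30 of 74 (40.5%, 29.3 to 52.6%) outside them were bound, with overlapping intervals. Whether the relation to clusters differs between these places was not tested. Autosomal tRNA genes had 60 of 188 (31.9%) bound in introns and 46 of 139 (33.1%) outside.

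The tRNA peaks were mostly separate from promoters of protein-coding genes. Of the bound X tRNA genes 12 (12%) shared their summit with the window of a protein-coding start, against 28 of 109 (25.7%) on the autosomes. The strongest of the 12 was C28G1.t1, whose summit also lay in the windows of *C28G1.2* and of *sec-15*, an exocyst gene. Others, chosen after their values were seen, were F38G1.t2, for aspartate, in an intron of *egl-17*, a fibroblast growth factor gene (2.22 ± 0.446), and T06H11.t2 and T06H11.t3, for arginine, in an intron of the potassium channel gene *unc-58* (2.47 ± 0.502). X tRNA genes were bound at 23 of 62 (37.1%) with a protein-coding start within 1000 bp and at 77 of 214 (36.0%) without one.

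Nearly every isotype had bound genes on X. Of the 20 isotypes 19 had at least 1 bound member, and 3 genes had no isotype in RefSeq and were not bound. The highest shares were at asparagine (4 of 6), alanine (8 of 13), proline (11 of 20), glycine (10 of 20) and phenylalanine (3 of 6). Glutamate had 10 of 23 bound and arginine, the largest group, 9 of 27. Threonine had 1 of 14 bound on X, against 8 of 20 on the autosomes. The bound threonine gene was ZK563.t1 (3.05 and 2.73 in replicates 3 and 4, mean 2.89 ± 0.231), chosen after its value was seen. Tryptophan had 0 of 5 bound (up to 60% as 3 counts of 5) and 1 of 7 on the autosomes. Some counts include neighbours under 1 shared summit, such as F46G11.t1 and F46G11.t2 for proline and F15G9.t1 and F15G9.t2 for alanine. Groups of this size do not fix an order of the isotypes.

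**Figure D4:**
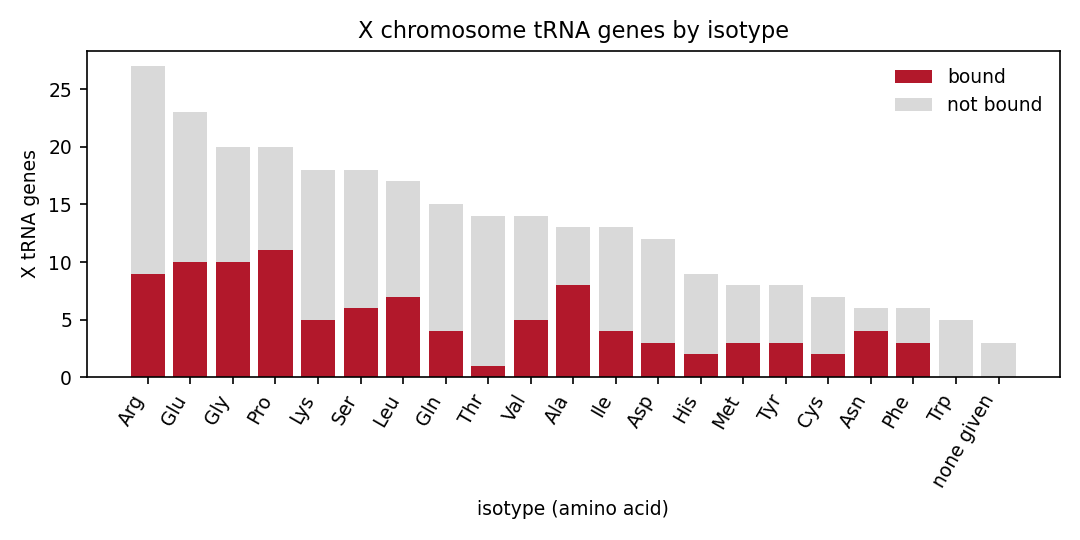
Number of X tRNA genes (y axis) by the amino acid the tRNA carries (x axis), split into bound (red) and not bound (grey). Bound genes are present in 19 of the 20 isotypes, with 1 of 14 for threonine and 0 of 5 for tryptophan.

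Copies with identical gene sequences differed in binding. The 276 genes had 106 distinct sequences. The 33 sequences with 2 or more copies on X held 203 genes, of which 79 (38.9%) were bound, against 21 of 73 genes (28.8%) whose sequence was found once on X. Bound and unbound copies occurred together in 28 of these 33 sequences, 1 had every copy bound and 4 had none. Neighbouring copies under 1 shared summit were each counted as bound, although its signal cannot be assigned to either copy. The sequence with most copies was a proline tRNA gene with 13 copies, of which 8 were bound at relative signals from 2.06 to 5.43. Among these 8 were F46G11.t1 and F46G11.t2, C48C5.t1 and C48C5.t3, and Y7A5A.t2 and Y7A5A.t3, each pair under 1 summit. The 2 of its unbound copies with regions in both lists were at 1.69 and 1.87. A glutamate tRNA gene with 12 copies had 5 bound, at 1.99 to 6.40, and unbound copies with regions in both lists at 1.42 and 1.55. A read that lies wholly inside a copy fits all the copies of its sequence.

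**Figure D5:**
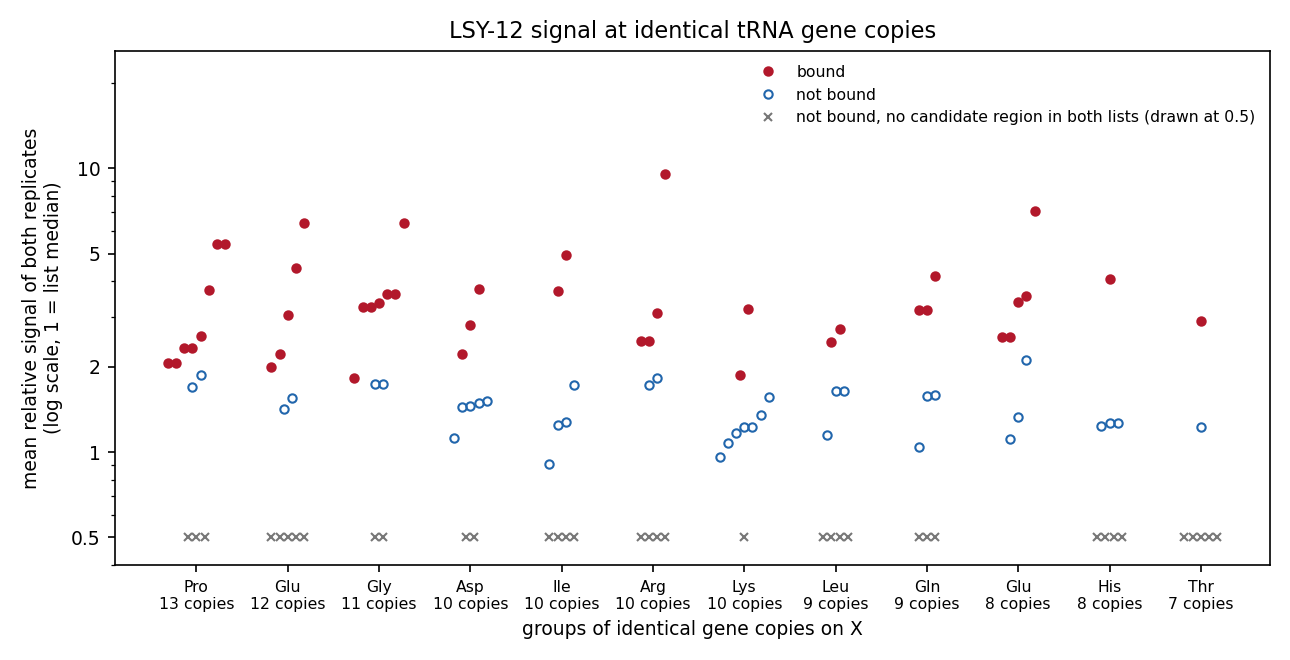
Mean relative signal of both replicates (y axis, log scale, 1 is the list median) for each copy of the 12 tRNA gene sequences with most identical copies on X (x axis, by isotype), as filled points for bound copies, open points for unbound copies and crosses, at an arbitrary 0.5, for unbound copies without a candidate region in both lists. All 12 sequences have bound and unbound copies, and the bound proline copies range from 2.06 to 5.43. Neighbouring copies under 1 shared summit are each drawn at its value.

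The flanks of the identical proline copies differed from each other. The 40 bases upstream of the 13 proline copies were 13 different sequences with a median pairwise identity of 32.5% (15 to 82.5%, 78 pairs). Identity was counted position by position without alignment, so a shift between related stretches lowers it. Only copies of the same gene sequence were compared, so no background value is given. The most alike pair, at 82.5%, was the unbound F23D12.t1 and the bound Y7A5A.t3. However, Y7A5A.t3 shared its summit with Y7A5A.t2, and F46G11.t1 shared its summit with F46G11.t2. The signal of either summit cannot be assigned to 1 copy. Upstream stretches are shown, 5′ to 3′ up to the base before the gene, for the bound copies F46G11.t1, ZK899.t1 and Y7A5A.t3 (relative signals 5.43, 3.74 and 2.06) and the unbound F23D12.t1 and ZK678.t3. The same stretch is shown for the histidine copies C06G1.t1, bound at 4.06, and F28H6.t3.
F46G11.t1, chrX:5801432-5801471, plus strand: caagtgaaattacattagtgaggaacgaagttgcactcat
ZK899.t1, chrX:9467801-9467840, minus strand: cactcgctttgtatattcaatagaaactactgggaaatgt
Y7A5A.t3, chrX:15796695-15796734, minus strand: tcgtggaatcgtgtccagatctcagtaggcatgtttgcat
F23D12.t1, chrX:14438062-14438101, plus strand: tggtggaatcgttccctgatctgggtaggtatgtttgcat
ZK678.t3, chrX:15751380-15751419, plus strand: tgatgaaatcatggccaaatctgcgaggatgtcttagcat
C06G1.t1, chrX:16634902-16634941, minus strand: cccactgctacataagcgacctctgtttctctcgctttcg
F28H6.t3, chrX:14135834-14135873, plus strand: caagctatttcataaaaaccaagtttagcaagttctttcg

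The 8 histidine copies had 6 distinct upstream stretches, with pairwise identities of 37.5 to 100% (median 45.0%, 28 pairs). Besides the 6 copies of the F28H6 cluster, C49F5.t1 was unbound, at a mean of 1.24, and it stood outside any cluster. C06G1.t1 was the bound copy, and its window had 5.88% repeated 32-base words, against 16.3 to 97.5% for the 7 unbound copies.

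A B box match and a downstream run of T were present at close shares in bound and unbound X tRNA genes. The A box was not searched for. An exact B box match on the gene's strand was present in 65 of 100 bound (65.0%) and 112 of 176 unbound X tRNA genes (63.6%), and in 217 of 336 autosomal ones (64.6%). With 1 mismatch allowed the counts were 87 of 100 bound and 151 of 176 unbound. X tRNA pseudogenes had an exact match in 9 of 29 (31.0%), and in 27 of 29 (93.1%) with 1 mismatch allowed. Of 245540 stretches of 72 bp on X outside tRNA genes, searched on both strands, 69 (0.0281%) held an exact match. A run of 4 or more T began within the 30 bases after the gene in all 100 bound and in 173 of 176 unbound genes, against 35.0% of 30-base windows of X. A match to these letters is a description of the sequence and does not show that the element is used.

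Genes of the machinery that makes and charges tRNAs were bound at a share near that of all protein-coding genes. Of 47 listed genes 46 were found in the annotation and 3 of them (6.52%) were bound, against 5.26% of all protein-coding genes. Of 10 RNA polymerase III subunit genes 1 was bound, *rpac-19*, a subunit shared with RNA polymerase I, with 4.67 and 3.70 in replicates 3 and 4 (mean 4.19 ± 0.683) and the summit 121 bp upstream of the start. Of 20 aminoacyl-tRNA synthetase genes 2 were bound. The methionine enzyme gene *mars-1* had 2.37 and 1.97 in replicates 3 and 4 (mean 2.17 ± 0.286), and the asparagine enzyme gene *nars-1* had 2.91 and 0.871 (mean 1.89 ± 1.44), under a summit shared with *nduf-6*. None of 6 genes for TFIIIC, TFIIIB and the repressor Maf1 and none of 10 genes for tRNA processing, modification and export was bound (up to 50% and 30%, as 3 counts of each total).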

How the data were processed

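The deposited lists are in narrowPeak form without header lines and give regions on ce11. The authors made lists of candidate regions with background for each replicate against a control, and for the replicates pooled, and derived the thresholded list by the irreproducible discovery rate procedure, per the text descriptions deposited with them. The aligner was not given in the sources used here, nor was the peak caller. The authors' signal value has no stated scale and was compared only inside lists. Regions were counted by their deposited −log10 q-value and placed by their deposited summit offset. Lists on ce10 were not used. No read counts are given, so depth is unknown and precision rests on the spread of the 2 replicates.

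Regions of the replicates that overlapped a thresholded region by at least 1 bp gave its mean ± SD (n = 2). For an unbound gene, the value of a replicate was that of the strongest of its candidate regions in the window. Genes came from Ensembl release 115 and isotypes and sequences from the RefSeq copy of WBcel235. Python 3.11.15, pandas 2.3.3, numpy 2.4.6, scipy 1.17.1 and matplotlib 3.10.9 were used, and the assignment of summits was tested on simulated peaks. With 1 group no test between conditions was possible. Alternatives were other windows, stricter peaks, each replicate alone, single-copy windows, overlap with the gene body, the nearest start only, the gene middle, other cluster gaps and host strands. Named genes were the 15 strongest bound and 5 strongest unbound, the 3 nearest each side of the 500 bp limit, members of the 3 largest clusters (ties included), the 2 sequences with most copies and the bound machinery genes. The members and lists were chosen with earlier results of these data known.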

Additional observations from a re-analysis of the deposited data

How the results depend on the processing

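Of 87 values recomputed under alternatives, 60 were counted as near the main one and 27 as moved. The shares outside clusters were added after seeing the data. With peaks above the median signal, 55 X and 52 autosomal tRNA genes were bound through 46 X summits, the median relative signal was 3.87, the shares in introns, outside genes, in clusters and outside clusters were 17.9%, 20.6%, 16.6% and 24.0%, and the median position was −13 bp. With a q-value of 0.01 or below these were 64, 62, 55, 3.66, 20.0%, 24.4%, 19.2%, 28.0% and −1 bp. Fewer peaks are used in both. Giving each summit to the nearest start of any gene left 69 X and 77 autosomal tRNA genes bound, against 100 and 109. These counts fell clearly, although they are among the 60 counted as near the main value. The same change left 28.4% in introns, 22.8% outside genes and 13.9% in clusters. In mostly single-copy windows 43.1% were bound outside genes. From the gene middle the median position was −23.5 bp. With 1 mismatch 87.0% of bound genes had a B box. Without each replicate in turn there were 88 to 100 X and 92 to 96 autosomal genes, 69 to 89 summits, a median of 3.01 to 3.20 and a position from −3.5 to 11.5 bp, with 33.7 to 36.8% in introns, 30.6 to 35.6% outside genes, 27.8 to 29.8% in clusters and 34.4 to 46.4% outside clusters. Shares in and outside clusters had overlapping intervals without replicate 3, with a window of 1000 bp, with the stricter peaks and with other cluster gaps. The cause of the other moves was not tested. No paired analysis was possible because there is 1 group. Depth is unknown and the candidate lists also hold background, so signal below the list's threshold was not called binding here.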

Other observations

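Along X the share of bound tRNA genes was highest in the leftmost of 3 stretches. With the chromosome divided into 3 stretches of equal length, 26 of 51 tRNA genes (51.0%, 36.6 to 65.2%) were bound in the left one, 38 of 107 (35.5%, 26.5 to 45.4%) in the middle one and 36 of 118 (30.5%, 22.4 to 39.7%) in the right one. The intervals overlapped, and the difference was not tested. Both strands were alike, with 50 of 136 genes (36.8%) bound on the plus strand and 50 of 140 (35.7%) on the minus strand. Of the X tRNA genes with an intron 5 of 12 (41.7%, 15.2 to 72.3%) were bound, against 95 of 264 (36.0%) without one. The 5, named here after their values were seen, were C02B4.t1, C02B4.t2, C04A11.t1, K09A11.t1 and R11.t1. C04A11.t1, for leucine, had a mean relative signal of 4.92 ± 0.163, and the tyrosine tRNA genes K09A11.t1 and R11.t1 had 2.98 ± 0.343 and 2.86 ± 0.230 (SD, n = 2 each).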
